A study of Ictidomys tridecemlineatus with 31 samples.

Results

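The genes described here are 10 genes that take up, store, release or make fatty acids, namely Cd36, Slc27a2, Lpl, Angptl4, Dgat1, Dgat2, Plin2, Pnpla2, Fasn and Acaca. They were chosen by gene symbol, and all 10 were found, each in 1 row, among the 12863 genes of a kidney RNA-Seq table. The table covers 31 kidneys of 13-lined ground squirrels (Ictidomys tridecemlineatus), a hibernator that rewarms from torpor many times each winter. Active season animals were summer active (SA, 5 animals), which were fattening, or spring dark (SpD, 5 animals), which remained warm in the dark after their last torpor bout. Hibernating animals were interbout aroused (IBA, 5 animals), entering torpor (Ent, 5 animals), early arousing (EAr, 5 animals) or late arousing (LAr, 6 animals). The animals were of both sexes, were captive, were implanted with temperature recorders that set their group, and carried no genetic change. Each kidney was perfused with cold buffer, and RNA came from a fragment of it, so that the mix of cortex and medulla could differ between animals.

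Values are regularized log (rlog) values on the log2 scale, corrected by the authors for the batch of sequencing. Experiment 1 supplied 3 animals each of IBA, Ent and SpD, and experiment 2 supplied all others, including every SA, EAr and LAr animal. K113 (LAr) and K137 (SA), which stood apart from their groups in the study, are shown apart, which left 29 animals (4 SA and 5 of each other state). All 12 proximal tubule and 5 podocyte markers of the labelled tissue were in the table, and none of 6 adrenal cortex markers was. Sequencing depth is not part of the table, so the precision is the spread between animals. A difference is a log2 difference from a limma model of state, sex and experiment, and q is its p-value adjusted over all genes by the method of Benjamini and Hochberg. Genes across the 6 states were called DE at q under 0.001, and single comparisons at q under 0.05.

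Fatty acids reach a cell either freed from circulating lipoproteins by lipoprotein lipase (Lpl), which Angptl4 inhibits, or as albumin-bound acids that enter with the help of Cd36 and Slc27a2. Inside, Dgat1 and Dgat2 add the last acyl chain of a triglyceride, Plin2 coats the droplet that holds it, and Pnpla2 (adipose triglyceride lipase) begins its breakdown. Acaca and Fasn make new fatty acids from acetyl-CoA. The proximal tubule depends on fatty acids for fuel, and hibernators live largely on stored fat in winter.

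Averaged over states, hibernation season kidneys held more transcript of Dgat2, Dgat1 and Plin2 than active season kidneys, and less of Lpl. Dgat2, Dgat1 and Plin2 build and coat the triglyceride store. Lpl was 1.37 lower on average (difference -1.37, 95% interval -1.88 to -0.86, q = 0.000182), and Dgat2 was 0.91 higher (0.46 to 1.36, q = 0.00238). Plin2 was 0.46 higher (0.17 to 0.76, q = 0.0153), and Dgat1 was 0.24 higher (0.12 to 0.36, q = 0.0031). This compared the mean of the 4 hibernation states with the mean of SA and SpD. Plin2 was called in no hibernation state against SA alone. Its means fitted by the model were 12.76 in SA, 12.96 in IBA, 12.45 in Ent, 13.08 in EAr and 12.85 in LAr. In SpD its fitted mean was 11.99. For Dgat1 the fitted mean in IBA (11.33) was not above that in SA (11.46) or SpD (11.34). Of the 10 genes, 4 passed (40%), and of all 12863 genes 33.4% passed, so the count itself was near that of the whole table. The median difference of the 10 genes was 0.09 (all genes 0.00). All 4 calls held without any single animal and in experiment 2 alone, where the differences were -1.85 for Lpl, 1.08 for Dgat2, 0.51 for Plin2 and 0.34 for Dgat1. The other 6 genes did not pass, with intervals of -0.67 to 0.26 for Cd36, -0.22 to 0.35 for Slc27a2, -0.65 to 0.38 for Angptl4, -0.01 to 0.39 for Pnpla2, -0.09 to 0.30 for Fasn and -0.11 to 0.14 for Acaca. In experiment 2 alone Slc27a2 passed as well (0.44, q = 0.00147, beside 0.07 and q = 0.734 in both experiments together).

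**Figure D1:**
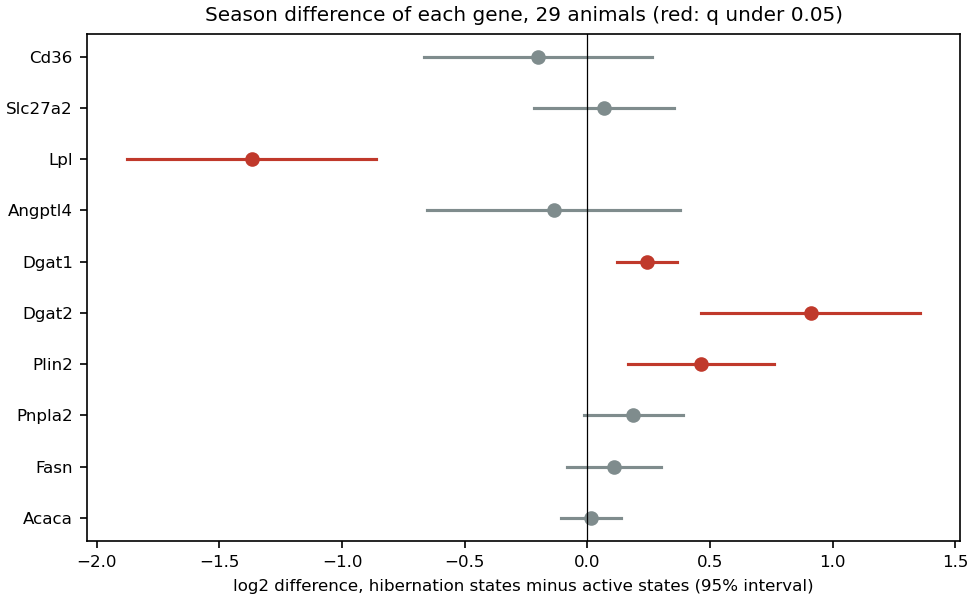
Log2 difference of each gene between the 4 hibernation states and the 2 active states (x axis, point, with its 95% interval as a line) over 29 animals, for the 10 genes (y axis). Lpl lies at -1.37 and Dgat2, Plin2 and Dgat1 at 0.91, 0.46 and 0.24, in red because q was under 0.05, and the gray intervals of the other 6 genes include 0.

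Across the 6 states, 1 of the 10 genes was DE at q under 0.001 (Dgat1, q = 0.000896), beside 9.34% of all genes. At q under 0.05, 7 of 10 passed, beside 46.1% of all genes: Dgat1, Lpl (q = 0.00235), Plin2 (q = 0.00833), Acaca (q = 0.0121), Dgat2 (q = 0.0141), Pnpla2 (q = 0.025) and Slc27a2 (q = 0.0274). Fasn (q = 0.254), Cd36 (q = 0.657) and Angptl4 (q = 0.805) did not. Dgat1 lay just under the threshold and missed it in 28 of 39 alternatives, with q up to 0.00407. Without K154, an EAr animal described with Cd36, Dgat2 (q = 0.000365) and Lpl (q = 0.000962) passed in its place, and no gene of the 10 passed with all 31 animals.

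**Figure D2:**
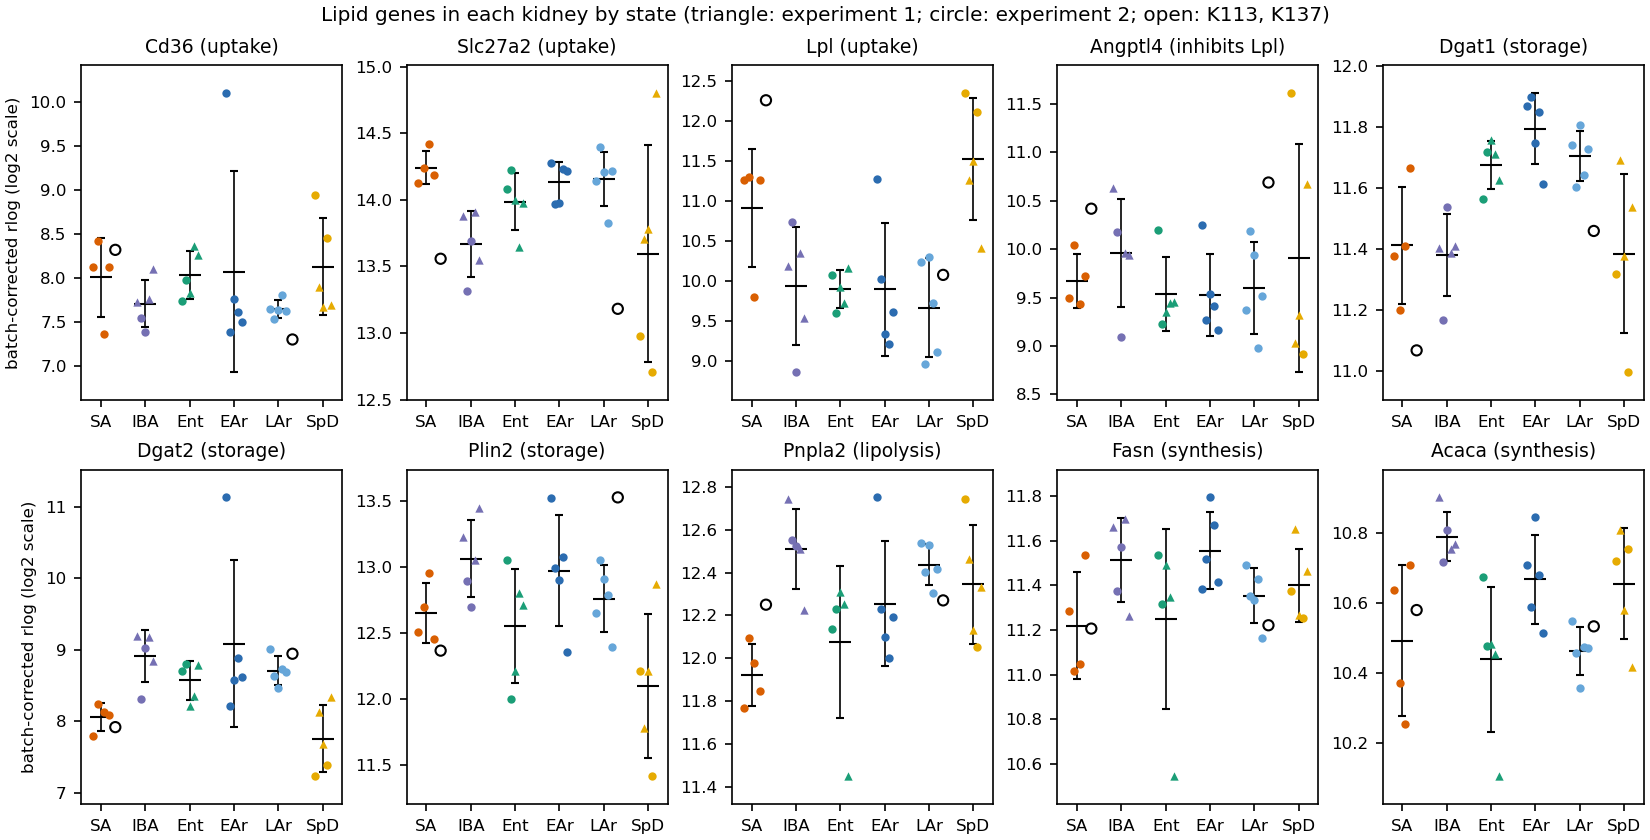
Batch-corrected rlog value (y axis, log2 scale) of each gene in every kidney, by state (x axis), with triangles for experiment 1, circles for experiment 2, and open circles for K113 and K137. Bars are the mean and SD of the animals without those 2. Lpl was highest in SpD (10.41 to 12.35), Dgat2 was lowest in SpD (7.23 to 8.34), and 1 EAr animal stands at 10.10 for Cd36 and at 11.13 for Dgat2.

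Slc27a2, a very long chain acyl-CoA synthetase and fatty acid transporter of the proximal tubule, was high in SA and low in IBA. Its values were 14.13, 14.24, 14.42 and 14.19 in SA, and 13.88, 13.31, 13.69, 13.91 and 13.55 in IBA, so that every SA animal was above every IBA animal. In LAr they were 14.14, 14.39, 14.21, 13.83 and 14.21, all but 1 above IBA. In SpD they spread most, at 12.98, 12.71, 13.71, 13.78 and 14.80, with both experiment 2 animals (K130 and K84) lowest of all 29. The Ent animals (13.64 to 14.22) and EAr animals (13.97 to 14.27) lay between these extremes. Slc27a2 fell from SA to IBA (difference -0.81, 95% interval -1.33 to -0.29, q = 0.0245), was lower in IBA than in LAr (-0.73, -1.23 to -0.23, q = 0.0372), and was higher in SA than in SpD (0.88, 0.36 to 1.41, q = 0.0304).

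These calls were weak. SA/SpD was lost without K130 (0.67, q = 0.191) or K84 (0.62, q = 0.119), or without K139, K140 or K141. IBA/SA was lost without K104 (-0.78, q = 0.0694), K139 or K140, and IBA/LAr without any of K104, K109, K111, K112, K116, K130, K4, K7 or K84 (q up to 0.1). SpD/IBA was 0.44 within experiment 1 (q = 0.416) and -0.66 within experiment 2 (q = 0.0346), beside -0.07 in both together (q = 0.865). With all 31 animals all 3 calls were lost (IBA/SA -0.68, q = 0.115), since K137 (13.56) and K113 (13.18) lay below their groups. The summed level of the 12 proximal tubule markers was 18.71 to 19.05 on the log2 scale in SA, 17.62 to 18.38 in IBA, 18.22 to 18.56 in LAr and 17.59 to 18.86 in SpD. It was thus higher in every SA than in every IBA animal. As mean rlog, the markers averaged 14.45 in SpD, 14.00 in IBA and 14.34 in LAr. The mean of Slc27a2 was 13.60 in SpD, 13.67 in IBA and 14.16 in LAr. K113 and K130 had the lowest proximal tubule sums of all (17.39 and 17.59), and K137 (17.84) was below the other SA animals. K84, with the lowest Slc27a2 of all, had a sum of 18.45, above every IBA animal. The part of these cells in the Slc27a2 differences was not tested. In such bulk samples, fewer cells of a type and less RNA per cell cannot be told apart. Over 29 animals the genes most like Slc27a2 were Ephx2, Acad11 and Hlf (Pearson's r = 0.91, 0.90 and 0.90), where Ephx2 is soluble epoxide hydrolase and Acad11 an acyl-CoA dehydrogenase of fatty acid breakdown.

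Cd36, the scavenger receptor that carries fatty acids across membranes of adipocytes, muscle and endothelium, showed no called difference between any of the states compared. Its levels overlapped in all states, with 7.37 to 8.42 in SA, 7.40 to 8.11 in IBA, 7.74 to 8.37 in Ent, 7.54 to 7.81 in LAr and 7.67 to 8.94 in SpD. In EAr the values were 10.10, 7.39, 7.77, 7.62 and 7.51. The EAr animal K154 thus stood more than 2 log2 units above the other 4, which averaged 7.57 ± 0.16 (SD, n = 4). K154 was also highest of all animals for Dgat2 (11.13) and for 3 of the 4 adipocyte markers that were in the table, Fabp4 (12.24), Lipe (11.25) and Plin4 (10.16). The fourth, Cfd, was 12.17 in K154 and higher in other animals, with 12.86 in K165 (EAr). The mean of these 4 markers was 11.45 in K154 and at most 9.77 in any other animal. The other 6 of 10 adipocyte markers listed (Adipoq, Lep, Plin1, Cidec, Retn and Ucp1) were not found by symbol. The part of fat cells in the level of Cd36 or Dgat2 in K154 was not tested.

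Without K154, Cd36 across states gave q = 0.129, and the season difference was -0.33 (q = 0.0634). The genes most like Cd36 over 29 animals were Prkar2b, a regulatory subunit of protein kinase A, and the fat cell proteins Fabp4 and Plin4 (r = 0.91, 0.90 and 0.80). Over the 28 animals without K154 these became 0.79, 0.83 and 0.54.

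**Figure D3:**
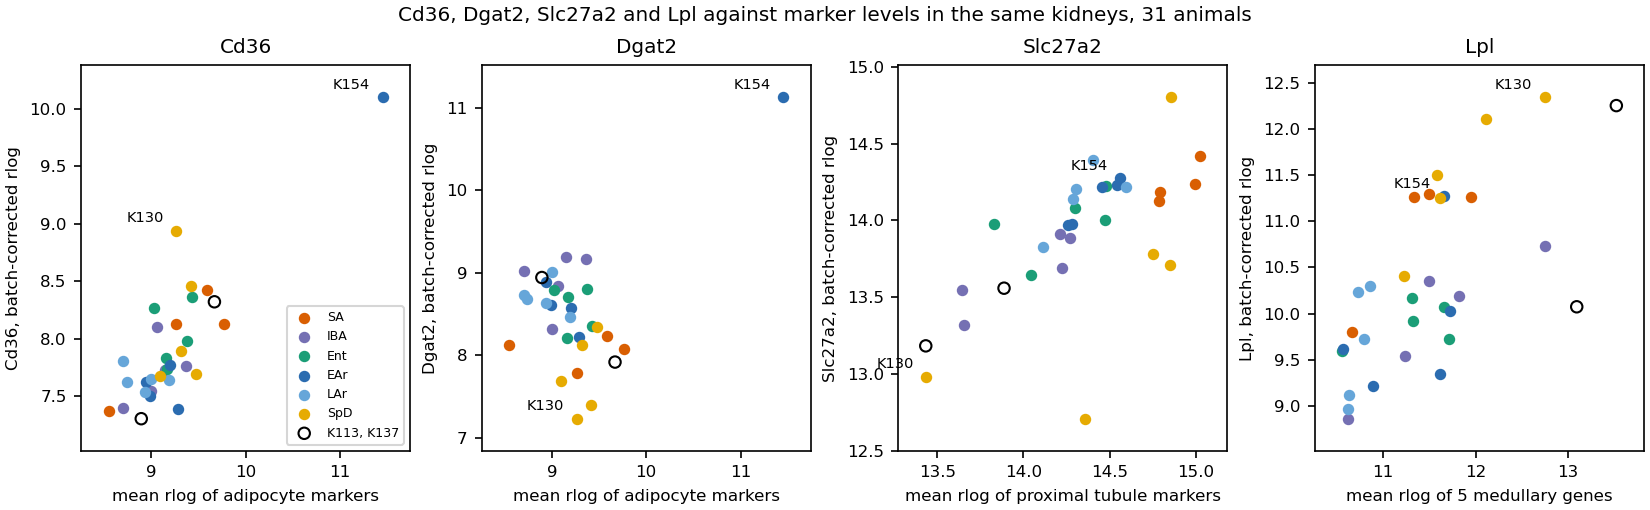
Rlog values of Cd36, Dgat2, Slc27a2 and Lpl (y axes) in 31 kidneys against the mean rlog of 4 adipocyte, 12 proximal tubule or 5 medullary genes in the same kidney (x axes), colored by state, with K113 and K137 open. K154 stands alone at 11.45 for the adipocyte markers, with 10.10 for Cd36 and 11.13 for Dgat2, and K130 has the lowest mean of proximal tubule markers (13.44) among the 29 animals.

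Lpl frees fatty acids from the triglycerides of lipoproteins and had the largest difference by season of the 10. In SpD its values were 12.35, 11.26, 11.50, 12.11 and 10.41, and in SA 11.26, 11.30, 9.80 and 11.26. In IBA they were 10.19, 10.73, 8.86, 10.35 and 9.54, and in LAr 10.23, 8.96, 10.30, 9.72 and 9.11. The lowest SpD animal, K9, overlapped IBA, and K140 was the only SA animal under 11. Ent spanned 9.59 to 10.16, and EAr spanned 9.21 to 11.27, with K154 at the top. By season, the 9 active animals averaged 11.25 ± 0.78 (SD) and the 20 hibernating animals 9.85 ± 0.60, and 10 of these 20 were below every active animal. The left-out SA animal K137 (12.26) was above the other SA animals, and K113 (10.07) was within LAr.

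Lpl rose from IBA to SpD (1.59, 95% interval 0.80 to 2.39, q = 0.00887), and IBA/SA did not pass (-0.88, -1.82 to 0.05, q = 0.164). Within experiments the SpD/IBA difference was 0.89 (experiment 1, q = 0.124) and 2.76 (experiment 2, q = 0.0184). With weights for animals it was 0.84 (q = 0.106). The 5 medullary genes summed to 14.27 to 15.15 in SpD, 14.04 to 15.18 in IBA and 14.16 to 14.26 in LAr. The 6 endothelial markers summed to 14.24 to 15.29 in SpD and 14.00 to 14.40 in SA. In the hibernation states the endothelial sums were 13.92 to 14.61 in IBA, 13.88 to 14.26 in Ent, 13.83 to 14.16 in EAr and 13.63 to 14.01 in LAr. K130, with the highest Lpl of the 29, had the highest endothelial sum of SpD, and without it SpD/IBA was 1.29 (q = 0.028). The part of these cells in the Lpl difference was not tested. The genes most like Lpl were Clgn, Esm1, which is made by endothelial cells, and Oxct1, which starts the use of ketone bodies (r = 0.86, 0.85 and 0.84).

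Angptl4, the fasting-induced inhibitor of lipoprotein lipase, had no called difference. Its levels were 9.43 to 10.05 in SA, 9.09 to 10.63 in IBA, 9.23 to 10.20 in Ent, 9.17 to 10.25 in EAr, 8.97 to 10.19 in LAr and 8.92 to 11.61 in SpD. The SpD animals K130 (11.61) and K9 (10.67) were the 2 highest of the 29, and K113 (10.69) and K137 (10.42) were above their groups. The interval was -0.59 to 1.31 for IBA/SA and -0.86 to 0.76 for SpD/IBA, so differences of that size were not detectable with this spread. The gene most like Angptl4 was Pdk4 (r = 0.74), a pyruvate dehydrogenase kinase known to rise in fasting, followed by Adipor1 and Nt5dc3 (both 0.71).

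Dgat1 rose and fell within the torpor-arousal cycle. Its values were 11.40, 11.17, 11.54, 11.39 and 11.41 in IBA. In Ent they were 11.56, 11.72, 11.76, 11.71 and 11.63, in EAr 11.87, 11.90, 11.75, 11.85 and 11.61, and in LAr 11.74, 11.60, 11.81, 11.64 and 11.73. Every Ent, EAr and LAr animal was thus above every IBA animal. The SA animals were at 11.38, 11.20, 11.41 and 11.66 and the SpD animals at 11.32, 11.69, 11.38, 10.99 and 11.54, which overlapped both. The mean fitted by the model was 11.33 in IBA, 11.46 in SA and 11.34 in SpD. It was 11.63 in Ent, 11.85 in EAr and 11.75 in LAr, so IBA did not share the rise by season. Dgat1 was higher in Ent than in IBA (0.30, 95% interval 0.10 to 0.49, q = 0.0376) and lower in IBA than in LAr (-0.42, -0.64 to -0.21, q = 0.00791). In experiment 2 alone, which held every LAr animal, IBA/LAr was -0.35 (q = 0.101) and did not pass. With only the groups compared, IBA/LAr was lost as well (q = 0.118). Ent/IBA was 0.31 within experiment 1 and 0.29 within experiment 2, and with 3 and 2 animals a side neither passed (q = 0.211 and 0.366). The Ent/IBA call was lost without any of K1, K104, K155, K167, K2, K4 or K7 (differences 0.25 to 0.30, q up to 0.111). Usp4, Eif2a and Slc52a2 were most like Dgat1 (r = 0.85, 0.82 and 0.81).

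Dgat2, the second enzyme of that step, differed by season, and no pair of hibernation states compared passed for it. In SpD its values were 7.23, 8.12, 7.69, 7.39 and 8.34, and in SA 7.79, 8.24, 8.13 and 8.08. In IBA they were 9.19, 8.31, 9.02, 9.17 and 8.84, all above SA, and LAr (8.46 to 9.02) was above both active groups. Of the 20 hibernating animals, 17 were above every active animal, and the exceptions were K104 (IBA), K2 (Ent) and K156 (EAr), at 8.31, 8.21 and 8.22 beside the highest active value of 8.34 in K9. The seasonal means were 8.82 ± 0.62 (SD, n = 20) and 7.89 ± 0.39 (SD, n = 9).

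Dgat2 fell from IBA to SpD (-1.15, 95% interval -1.85 to -0.45, q = 0.0281), by -1.03 within experiment 1 (q = 0.0525) and -1.20 within experiment 2 (q = 0.239). That call was lost without any of K1, K130, K171, K4, K6 or K84, with differences of -1.13 to -1.08 (q up to 0.0667). K154 (11.13, beside 8.22 to 8.89 in the other EAr animals) widened the spread of this gene. Without it SpD/IBA kept its size with q = 0.000465, IBA/SA passed (0.69, q = 0.0276, beside 0.65 and q = 0.248 with it), and the season difference was 0.78 (q = 4.47e-05). The genes most like Dgat2 were Nnat, Setd3 and Csnk1a1 (r = 0.84, 0.82 and 0.81), and without K154 these were 0.66, 0.73 and 0.79.

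Plin2, the coat protein of lipid droplets in most cells other than fat cells, had its lowest mean in SpD (12.10 ± 0.55, SD, n = 5). Its values there were 12.21, 11.78, 12.21, 11.41 and 12.87, and in IBA 13.23, 12.89, 12.69, 13.05 and 13.45. All but K9 of the SpD animals were below every IBA animal. The SA values were 12.50, 12.70, 12.96 and 12.45, and the Ent, EAr and LAr animals ranged over 12.0 to 13.05, 12.35 to 13.53 and 12.39 to 13.05. No hibernation state was called against SA for this gene. Plin2 fell from IBA to SpD (-0.97, 95% interval -1.43 to -0.50, q = 0.00684), with -0.92 within experiment 1 (q = 0.128) and -0.88 within experiment 2 (q = 0.134), and it kept this call without any single animal. SA/SpD was 0.76 (0.22 to 1.31, q = 0.0618) and passed without K155, K2 or K9 (0.80 to 0.90). K113 (13.53) was above LAr and K137 (12.36) below SA. Over 29 animals the highest correlations among pairs of the 10 genes were those of Fasn with Acaca (r = 0.75), Dgat2 with Plin2 (0.63) and Cd36 with Lpl (0.56), and the lowest was that of Lpl with Dgat1 (-0.50). Without K154 these were 0.75, 0.59, 0.62 and -0.59, and the lowest became that of Lpl with Dgat2 (-0.77, beside -0.38 with K154). State, experiment and the mix of tissue vary together over these animals, so the correlations describe the table and were not tested. Hgsnat, Mbnl1 and Cbfb had the highest correlations with Plin2 (r = 0.72, 0.72 and 0.70).

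Pnpla2, which cuts the first fatty acid from a stored triglyceride, had its lowest mean in SA (11.92 ± 0.15, SD, n = 4). The SA values were 11.77, 12.10, 11.98 and 11.85, and the IBA values were 12.74, 12.55, 12.52, 12.51 and 12.22, with no overlap. LAr, at 12.54, 12.40, 12.53, 12.30 and 12.42, was also above every SA animal. Pnpla2 rose from SA to IBA (0.65, 95% interval 0.28 to 1.02, q = 0.0122), a call that held without any single animal. Ent/IBA was -0.43 (-0.75 to -0.12, q = 0.06), and was -0.48 and -0.32 within experiments 1 and 2. K8 had the lowest Pnpla2 of the 29 (11.45, beside 12.14 to 12.31 in the other Ent animals). Without K8 the season difference passed (0.23, q = 0.0292). Men1, CUNH11orf24 and Asb6 were most like Pnpla2 (r = 0.88, 0.84 and 0.83).

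Acaca, acetyl-CoA carboxylase, makes malonyl-CoA in the committed step of fatty acid synthesis, and it was high and even in IBA. The IBA values were 10.90, 10.72, 10.81, 10.76 and 10.77 (10.79 ± 0.07, SD, n = 5), all above the Ent values of 10.68, 10.48, 10.48, 10.46 and 10.11 and the LAr values of 10.55, 10.46, 10.36, 10.48 and 10.47. They were also above the SA values of 10.64, 10.37, 10.26 and 10.71. EAr (10.51 to 10.85) and SpD (10.42 to 10.81) overlapped with IBA. Acaca rose from SA to IBA (0.36, 95% interval 0.13 to 0.58, q = 0.0213), was higher in IBA than in LAr (0.39, 0.18 to 0.60, q = 0.0126), and fell from IBA to Ent (-0.35, -0.54 to -0.16, q = 0.0157). Within experiments 1 and 2 Ent/IBA was -0.48 (q = 0.151) and -0.17 (q = 0.565). The Ent/IBA call was lost without K1 (-0.31, q = 0.0577), and IBA/SA without K139 (0.31, q = 0.0704) or K140 (0.28, q = 0.077). In experiment 2 alone, which held every SA and LAr animal, IBA/SA (0.25, q = 0.138) and IBA/LAr (0.29, q = 0.125) did not pass. With only the groups compared, IBA/SA had q = 0.444. IBA is shared by all 3 comparisons, so they are not independent of each other, and the same is true of Dgat1 in IBA/LAr and Ent/IBA.

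Fasn, the synthase that acts after Acaca, had no called difference. Its levels overlapped between all states, with 11.02 to 11.53 in SA, 11.26 to 11.70 in IBA, 10.55 to 11.54 in Ent, 11.38 to 11.79 in EAr, 11.16 to 11.49 in LAr and 11.25 to 11.65 in SpD. IBA/SA was 0.32 (-0.04 to 0.67, q = 0.188) and Ent/IBA was -0.27 (-0.57 to 0.04, q = 0.232). K8 had the lowest Fasn (10.55) and the lowest Acaca (10.11) of the 29. The genes most like Fasn were Tln1, Cad and Myh9 (r = 0.86, 0.83 and 0.83), and those most like Acaca were Pml, Il4r and Abcc1 (each 0.75).

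Taking the cycle in order, 3 of the 10 genes passed in IBA/SA (22.9% of all genes did), namely Slc27a2 lower and Pnpla2 and Acaca higher. In Ent/IBA 2 passed (13.1% of all genes), Dgat1 higher and Acaca lower. None passed in EAr/Ent (0.257% of all genes) or in LAr/EAr (0.575%). In limma at an unadjusted p under 0.05 these pairs held 2 (Dgat1 and Plin2) and 1 (Acaca) of the 10 genes. The shares of all genes at that unadjusted threshold were not counted, so these counts cannot be read as an excess. In IBA/LAr 3 passed (18% of all genes), Slc27a2 and Dgat1 lower and Acaca higher. In SpD/IBA 3 passed (11.9%), Lpl higher and Dgat2 and Plin2 lower, and in SA/SpD 1 passed (10.5%), Slc27a2 higher. No gene of the 10 differed between females and males in limma (0.218% of all genes did), where 0 had an unadjusted p under 0.05. None had a state by sex interaction at an adjusted p (q) under 0.05 in limma, where 1 of all 12863 genes did. There 2 of the 10 genes had an unadjusted p under 0.05, Angptl4 (q = 0.58) and Plin2 (q = 0.9998). Of all 12863 genes, 400 had an unadjusted p under 0.05 in that test.

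**Figure D4:**
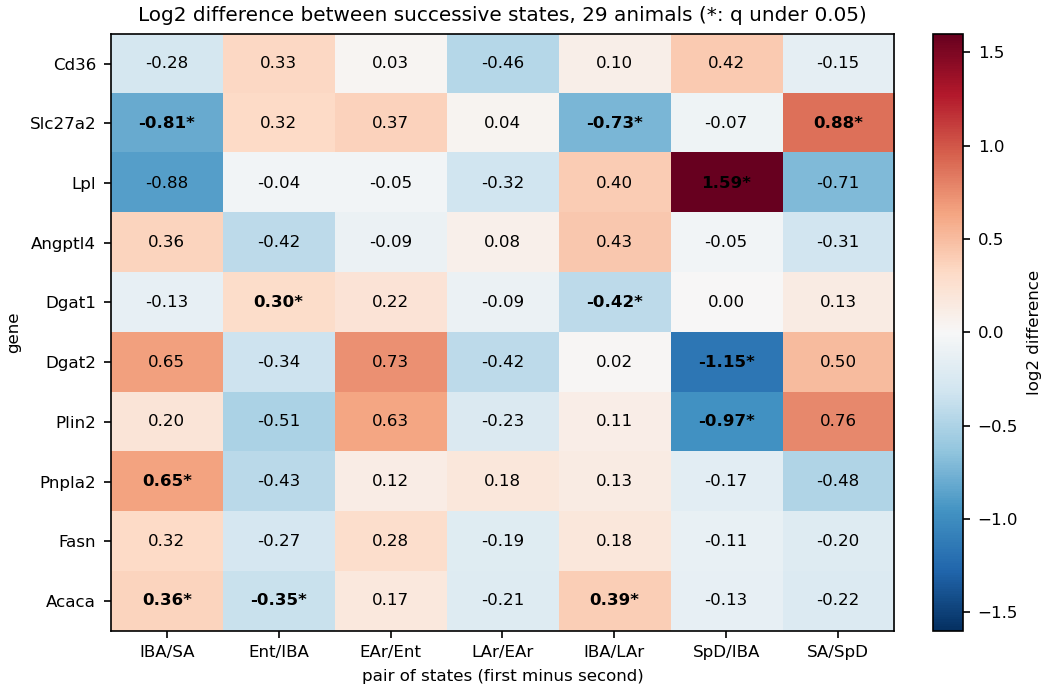
Log2 difference (color and number) of each gene (rows) between pairs of states in the order of the yearly and torpor cycles (columns, first state minus second), over 29 animals. An asterisk marks q under 0.05: the largest is Lpl in SpD/IBA (1.59), and no gene is marked in EAr/Ent or LAr/EAr.

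The wider pathway was read from lists of 95 other genes of lipid uptake, triglyceride assembly, lipolysis, synthesis and their regulators, of which 79 were in the table. Across states, 7 of 79 (8.86%) were DE at q under 0.001 and 36 (45.6%) had q under 0.05, beside 9.34% and 46.1% of all genes. In hibernation compared with the active season 7 were higher and 17 lower (30.4% of 79, beside 33.4% of all genes, of which 2136 were higher and 2158 lower). From SA to IBA 6 rose and 17 fell (29.1%, beside 22.9% of all genes, 1337 higher and 1605 lower). From IBA to SpD 12 rose and 2 fell (17.7%, beside 11.9% of all genes, 834 higher and 697 lower). In Ent/IBA 2 were higher and 3 lower (6.33%, beside 13.1% of all genes), in IBA/LAr 5 were higher and 6 lower (13.9%, beside 18%), in SA/SpD 6 were higher and 3 lower (11.4%, beside 10.5%), and in EAr/Ent and LAr/EAr none passed.

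By list, 3 of 15 uptake and activation genes were DE across states. Acsl4, an acyl-CoA synthetase that prefers arachidonate, averaged 0.68 higher in hibernation (q = 3.8e-07), rose by 0.96 from SA to IBA and fell from IBA to SpD (-1.09). The acyl-CoA synthetase Acsl1 went the other way, with -0.95 in IBA/SA and 0.66 in SpD/IBA, and so did Fabp3, a fatty acid binding protein, in SpD/IBA (1.13, q = 0.000104). Of 9 lipolysis genes 1 was DE, the monoacylglycerol lipase Abhd6, lower in hibernation (-0.38). Of 17 genes of synthesis, elongation and desaturation 2 were DE. These were Acss2, which makes acetyl-CoA from acetate, and Mecr, of mitochondrial fatty acid synthesis, and both fell from SA to IBA (-0.92 and -0.65). Of 16 genes of triglyceride assembly and droplet coats 1 was DE, Agpat3 (-0.25 in hibernation), and of 23 regulators none passed at q under 0.001 and 9 at q under 0.05.

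K113 and K137 did not move the genes one way. Beside the other animals of its group, K113 was above all for 2 of the 10 genes (Angptl4 and Plin2), below all for 4 (Cd36, Slc27a2, Dgat1 and Pnpla2) and within the range for 4. K137 was above all for 3 (Lpl, Angptl4 and Pnpla2), below all for 3 (Slc27a2, Dgat1 and Plin2) and within for 4.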

How the data were processed

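RNA-Seq was performed by the authors on poly(A)-selected RNA from kidney fragments, with different library kits and instruments in experiments 1 and 2. Per the study's methods, reads were trimmed with cutadapt, cleared of mitochondrial reads with hisat2, and quantified with Salmon on the HiC_Itri_2 annotation, and genes with low rlog values were removed. The deposited values are rlog values on the log2 scale, made by the authors with DESeq2 and batch-corrected with limma. Means of both experiments then differed by at most 7.11e-15 for any gene. Plain state means thus carry part of that centering, those of SA, EAr and LAr (experiment 2 only) included. Fitted differences need not equal differences of plain means. Overlap between the plain values of such states and those of IBA, Ent or SpD carries the centering too.

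Raw counts were not used here, so the study's count model was replaced with limma 3.58.1 (R 4.3.3), with terms for state, sex and experiment and an intensity trend, fitted to all 12863 genes. P-values were adjusted by Benjamini-Hochberg within each comparison over all genes, and the threshold was 0.001 across states (the study's) or 0.05 for single comparisons. Tests were 2-sided. The residual degrees of freedom ignore the earlier batch correction. The 29 animals were those of the study's DE analysis. The rlog shrinks low counts, which draws the differences of low genes toward 0.

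Marker levels are log2 sums or means of rlog values. Correlations are Pearson's r over animals. Results across states, by season and for successive pairs were refitted with K113 and K137 added, after dropping the experiment or the sex term, and without the intensity trend. Other refits used a robust prior variance, weights for animals, experiment 2 alone, genes averaging 8 or more, or values centered on animal medians. Other thresholds were also used, and each animal was left out in turn. Fits of experiment 1 alone covered Ent/IBA and SpD/IBA, and fits of only the groups compared covered the successive pairs. The 10 genes, the pathway lists and the markers were chosen with earlier results of these data known. Named are all 10 genes, up to 3 genes of lowest q under 0.001 of each pathway list (the regulators had none), genes a marker check turns on, and the 3 genes with a symbol most like each of the 10. All 10 matched 1 symbol in the RefSeq annotation mIctTri1.hap1, which is not the authors' build, so no positions are given, and promoter sequences were not used here. Python 3.11.15, pandas 2.3.3 and matplotlib 3.10.9 were used for summaries and figures.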

Additional observations from a re-analysis of the deposited data

Results flagged for a closer look

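In 6 of the 60 groups (10 genes in 6 states), 1 animal lay far from the others of its state by Dixon's criterion, which chance alone would meet in about 1 of 20 groups. In EAr, K154 stood apart for Cd36 (10.1, beside 7.39 to 7.77 in the others) and for Dgat2 (11.1, beside 8.22 to 8.89). In Ent, K8 was low for Pnpla2 (11.4, beside 12.1 to 12.3) and for Fasn (10.5, beside 11.3 to 11.5), and K155 was high for Angptl4 (10.2, beside 9.23 to 9.46). In SA, K140 was low for Cd36 (7.37, beside 8.13 to 8.42, with K137 included).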

How the results depend on the processing

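Of the 10 genes, 1 passed across states, and 0 did with all 31 animals, with no term for experiment, with no intensity trend, or without both K130 and K154 (an alternative chosen after the marker values were seen), while 3 passed at 0.01 and 7 at 0.05. SA/SpD (1 passed) gave 0 with all 31 animals, no term for experiment, animal weights, or without K130 and K154, and 2 in experiment 2 only. Ent/IBA (2 passed) gave 1 with all 31 animals, 4 with animal weights and 0 in experiment 2 only. IBA/LAr (3 passed) gave 1 in experiment 2 only. With only the groups compared, IBA/SA, Ent/IBA and IBA/LAr gave 0. At 0.001, SA/SpD, IBA/SA, Ent/IBA, IBA/LAr and SpD/IBA gave 0, and hibernation against the active season gave 1 (Lpl). With 1 animal left out, counts ranged from 0 to 2 across states (2 without K154 or K171), 0 to 2 in SA/SpD, 1 to 4 in IBA/SA, 0 to 3 in Ent/IBA, 2 to 3 in IBA/LAr, 2 to 3 in SpD/IBA, 4 to 5 by season, and 0 to 0 in EAr/Ent and LAr/EAr. A stricter threshold can only keep or lower a count by construction, and the cause of the other changes was not tested. No called value of the 10 genes changed sign under any alternative run. No depth is given in the table, so counting error is unknown. With 4 or 5 animals a state, intervals of Cd36, Angptl4, Lpl, Dgat2, Slc27a2 and Plin2 span more than 1 log2 unit in some pairs of states.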
